A study of Mus musculus with 8 samples.

Results

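The core autophagy genes were read out in heart RNA of mice that had lost Mettl3 from cardiomyocytes. They were chosen by symbol and biotype. The rule took the 19 protein-coding genes whose symbol starts with Atg and a digit, and 23 protein-coding genes listed by name, from the Ulk kinases to the lysosomal membrane protein Lamp2. This gave 42 genes of the 23045 in the deposited table, of which 15157 were protein-coding. In all, 41 of the 42 had a mean normalized read count of at least 1 and were tested. The remaining one, Atg4a-ps, was listed at 0, 1, 3 and 0 in WT libraries and at 0, 1, 1 and 0 in Mettl3 KO libraries. Its name marks it as a copy of Atg4a, so the count of Atg4a is uncertain to the extent that the 2 share reads.

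Bulk heart RNA had been sequenced in 4 WT and 4 Mettl3 KO libraries, a design with which the study addressed the use of polyA sites after loss of the m6A methyltransferase METTL3. WT mice were Mettl3lox/lox. Mettl3 KO mice were Mettl3lox/lox:alphaMHC-MerCreMerpos, in which the alphaMHC promoter drives a tamoxifen-dependent Cre recombinase in cardiomyocytes. Both genotypes received intraperitoneal tamoxifen at 100 µg per g body weight for 7 days in a row, at an age of 10 to 16 weeks. The time from injection to harvest and the sex of the animals are not given in the sources used here. No mice with the Cre transgene and intact Mettl3 were analysed here, so the transgene and the loss of Mettl3 cannot be told apart. The labels do not say how each replicate was obtained beyond its number, and p-values measure the spread between these 8 libraries.

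Autophagy encloses cytoplasm in a double membrane, the autophagosome, which fuses with lysosomes for digestion. The ULK kinase complex starts the process, a phosphatidylinositol 3-kinase complex marks the membrane, and a pair of ubiquitin-like conjugation reactions attaches ATG8 proteins (the LC3 and GABARAP families) to the growing membrane. Receptor proteins bind both cargo and ATG8. In the heart, where cardiomyocytes are rarely replaced, the pathway clears damaged mitochondria and protein aggregates, and it is under the control of the mTORC1 and AMPK kinases. METTL3 is the catalytic subunit of the complex that places m6A on mRNA.

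The sequences upstream of the 4 members that passed the test are shown because 2 of them rose and 2 fell. Each line gives the 250 bases before the annotated start, taken from RefSeq on build GRCm38.p6 (the deposited gene positions below are on mm39, so the 2 sets of coordinates are not comparable), written 5′ to 3′ on the strand of the gene. Capitals mark GGGCGG or its reverse complement CCGCCC, the GC box that Sp-family factors bind. The Ulk1 window (chr5:110810082-110810331, minus strand) held 5 GC boxes, the Ulk2 window (chr11:61855093-61855342, minus strand) and the Optn window (chr2:5064118-5064367, minus strand) held 1 each, and the Atg101 window (chr15:101284051-101284300, plus strand) held 0.
Ulk1: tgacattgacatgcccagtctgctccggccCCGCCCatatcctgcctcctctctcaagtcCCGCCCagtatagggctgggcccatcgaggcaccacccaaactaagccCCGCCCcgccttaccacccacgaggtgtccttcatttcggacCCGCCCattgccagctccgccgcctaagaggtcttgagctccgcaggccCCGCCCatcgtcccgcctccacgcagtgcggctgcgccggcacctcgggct
Ulk2: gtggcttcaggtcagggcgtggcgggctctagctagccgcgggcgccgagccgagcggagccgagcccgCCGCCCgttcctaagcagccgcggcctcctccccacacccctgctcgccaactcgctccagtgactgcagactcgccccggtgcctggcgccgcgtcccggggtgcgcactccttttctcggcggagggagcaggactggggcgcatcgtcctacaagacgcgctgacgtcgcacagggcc
Atg101: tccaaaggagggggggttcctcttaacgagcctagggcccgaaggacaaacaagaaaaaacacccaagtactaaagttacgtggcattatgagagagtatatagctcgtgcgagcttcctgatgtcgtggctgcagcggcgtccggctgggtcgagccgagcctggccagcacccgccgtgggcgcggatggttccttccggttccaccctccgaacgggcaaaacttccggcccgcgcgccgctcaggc
Optn: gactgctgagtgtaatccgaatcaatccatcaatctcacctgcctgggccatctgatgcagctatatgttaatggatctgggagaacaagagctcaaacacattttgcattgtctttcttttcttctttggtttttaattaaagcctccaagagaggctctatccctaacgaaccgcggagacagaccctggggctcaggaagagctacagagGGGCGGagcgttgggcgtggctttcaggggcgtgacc

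The second motif was CACGTG, the palindromic E-box core that TFEB and other basic helix-loop-helix factors bind, read over both strands of windows of 300 bases (250 before and 50 after each listed start). Of the 41 tested members, 34 matched a RefSeq promoter by symbol. Map1lc3a, Rb1cc1, Pik3c3, Atg12, Bnip3l, Becn1 and Atg16l1 were not matched. CACGTG was found in 6 of the 34 (17.6%), compared with 8.09% of 27025 genes with a promoter. The longer word TCACGTG, which contains CACGTG, was found in 4 members (11.8%) and in 4.29% of all genes. GGGCGG was found in 23 members (67.6%) and in 38.2% of all genes, and its matches can lie beside each other in the same window. The 27025 genes were limited neither to protein-coding genes nor to those tested here. A match at any listed start of a gene was counted. The shares of members and of all genes are thus not like for like, and enrichment was not tested. The 6 members with CACGTG were Atg3, Atg5, Atg7, Atg14, Bnip3 and Lamp1, and the letters were absent from the windows of Ulk1, Ulk2, Atg101 and Optn. The windows of 30 bases around one E-box of each of these 6 genes, with CACGTG in capitals, are shown for their distance from the start. The first base of the word was the base just before the start in Atg14, 14 bases before it in Atg5, 108 before it in Bnip3 and 132 before it in Atg7. Atg3 had 2 copies, 94 and 71 bases before the start, of which the farther is shown. Lamp1, which encodes an abundant glycoprotein of the lysosomal membrane, had 4 copies, 61 to 15 bases before the start, and the copy shown begins at 28. A match is a run of letters, not a measured binding site.
Atg14 (chr14:47568418-47568447, minus strand): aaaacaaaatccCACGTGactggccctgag
Atg5 (chr10:44268313-44268342, plus strand): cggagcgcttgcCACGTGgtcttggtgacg
Atg7 (chr6:114670952-114670981, plus strand): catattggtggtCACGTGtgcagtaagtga
Bnip3 (chr7:138909597-138909626, minus strand): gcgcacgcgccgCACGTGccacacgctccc
Atg3 (chr16:45158723-45158752, plus strand): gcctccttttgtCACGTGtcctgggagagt
Lamp1 (chr8:13159121-13159150, plus strand): gatgccgactggCACGTGaccacatcacgt

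Of the 41 members, 4 passed the test (adjusted p under 0.05 over all 20313 genes tested with limma, two-sided), which is 9.76% beside 7.91% of all genes. Atg101 and Ulk2 were higher in Mettl3 KO hearts (2 of 41, where 4.72% of all genes were higher), and Ulk1 and Optn were lower (2 of 41, where 3.19% of all genes were lower). Because calls are more frequent among abundant genes, the share among genes with a mean of at least 20 is the closer comparison: 11.9% of 12027 such genes passed, and 40 of the 41 members belong to them. The share of members that passed was thus near the background. WT and Mettl3 KO values did not overlap for 6 of 41 members (14.6%), compared with 11.5% of all genes tested. These were the 4 called genes, Atg5 and Atg7. An unadjusted limma p under 0.05 was found for 8 members (19.5%), beside 20.6% of all genes tested and 27.5% of those with a mean of at least 20. The count of 4 called members fell to 2 without WT library 1 or 4 or Mettl3 KO library 2 or 3, with Atg101 among them each time.

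The sizes of the differences were summarised over all 41 tested members, and some members that did not pass, such as Atg9a at -0.24, had a larger log2 fold change in size than Ulk2 or Optn, which did. The median log2 fold change (Mettl3 KO over WT, on the log2(value + 1) scale) was -0.02 over the 41 members and -0.01 over all genes, with 19 members above 0 and 22 below. The median absolute log2 fold change was 0.10 over the members and 0.17 over all genes. For 39 members the 95% interval of the log2 fold change lay within ±0.5, the exceptions being Atg101 and the scarce Atg9b. The mean normalized read count of the members in WT hearts ranged from 6.5 to 1145 with a median of 189, and the median over all tested genes was 38.3.

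**Figure D1:**
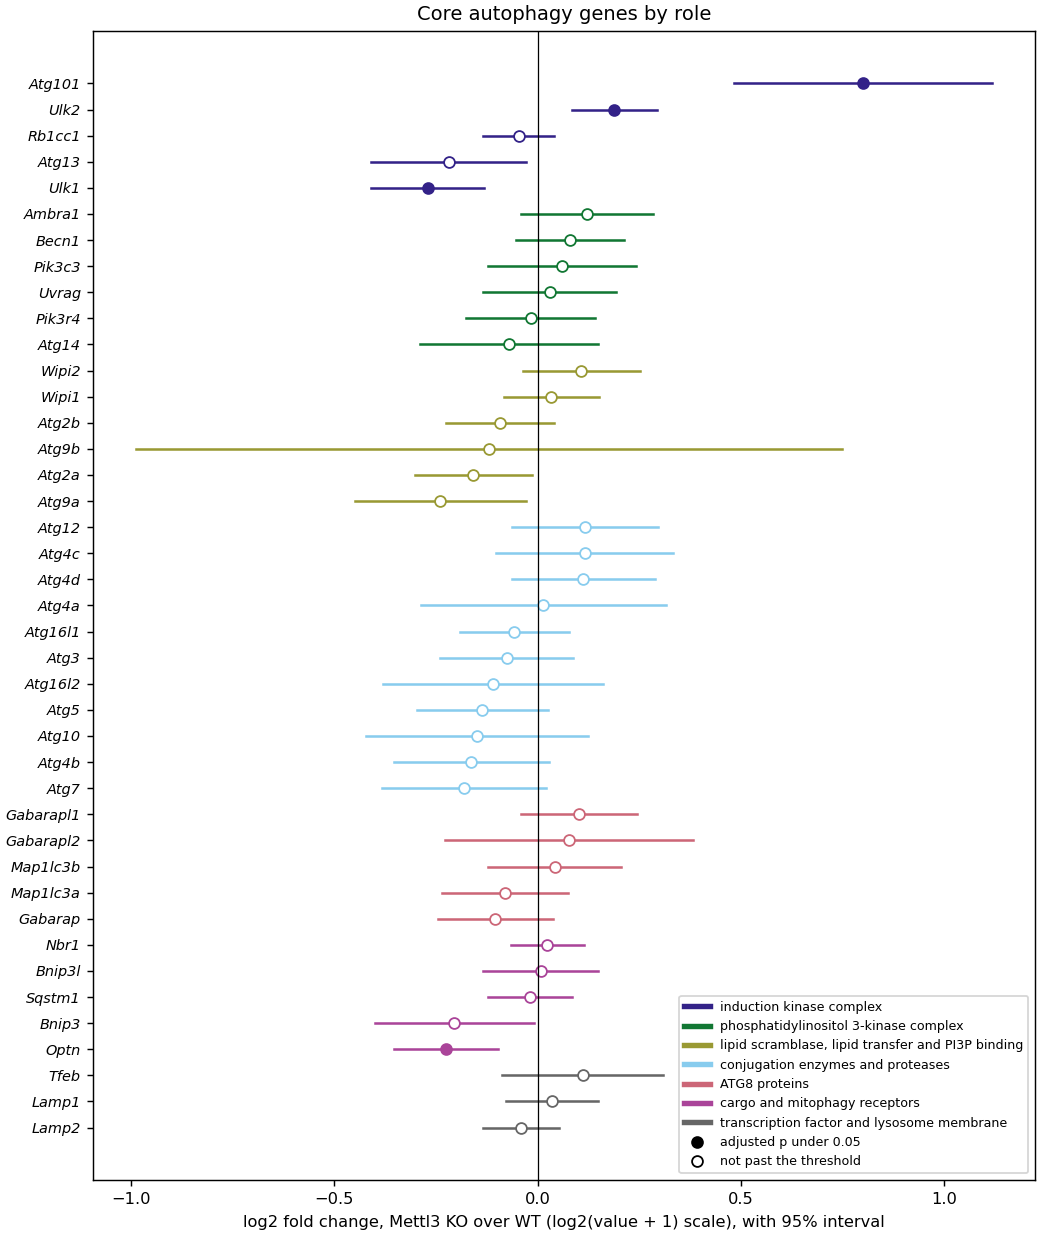
Log2 fold change of each of the 41 tested core autophagy genes, Mettl3 KO over WT on the log2(value + 1) scale, with its 95% interval from limma, grouped and coloured by role. Filled points mark the 4 genes with an adjusted p under 0.05, 3 of which belong to the induction kinase complex. Atg9b has the widest interval, from -0.99 to 0.75.

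Of the 5 genes of the induction kinase complex 3 were called, beside 7.91% of all genes and 11.9% of those with a mean of at least 20. A concentration of calls in this group was not tested, and of the 3 genes only Atg101 kept its call under all 18 alternatives, while Ulk1 lost it under 3 and Ulk2 under 5. ULK1 and ULK2 are the related serine/threonine kinases of the complex, ATG13 and ATG101 bind each other and hold it together, and RB1CC1 (FIP200) is its large scaffold. The median log2 fold change of the 5 was -0.05, with 2 members higher, 1 lower and 2 not past the threshold.

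Atg101 (ENSMUSG00000037204, mm39 chromosome 15, 101182153 to 101188826, plus strand) had 41, 43, 27 and 42 normalized read counts in WT libraries and 60, 62, 73 and 71 in Mettl3 KO libraries. Every Mettl3 KO library lay above every WT library, and WT library 3 was the lowest. The mean rose from 38.3 ± 7.54 (SD, n = 4) to 66.5 ± 6.46 (SD, n = 4), to 173.9% of WT. The log2 fold change was 0.80 (SE 0.15, 95% interval 0.48 to 1.12, limma adjusted p = 0.00152). It remained past the threshold under each of the 18 alternatives, with values between 0.65 and 0.86 and adjusted p between 0.000737 and 0.0139.

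Ulk1 (ENSMUSG00000029512, mm39 chromosome 5, 110932354 to 110957963, minus strand) counted 337, 276, 335 and 332 in WT libraries and 259, 264, 269 and 265 in Mettl3 KO libraries. The Mettl3 KO values were tightly grouped and all lay below the lowest WT value, that of library 2. The mean fell from 320.0 ± 29.4 (SD, n = 4) to 264 ± 4.11 (SD, n = 4), to 82.6% of WT. The log2 fold change was -0.27 (SE 0.07, 95% interval -0.41 to -0.13, limma adjusted p = 0.0134). The adjusted p was 0.0575 without WT library 1 and 0.0525 without WT library 4, with log2 fold changes of -0.24 and -0.25. Over the 18 alternatives it ranged from 0.0021 to 0.0866.

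Ulk2 (ENSMUSG00000004798, mm39 chromosome 11, 61666475 to 61745899, minus strand) moved the other way. It had 491, 513, 488 and 487 in WT libraries and 561, 601, 560 and 536 in Mettl3 KO libraries. The genotypes did not overlap, and library 2 was the highest of each. The mean rose from 495 ± 12.3 (SD, n = 4) to 564.5 ± 26.9 (SD, n = 4), to 114% of WT. The log2 fold change was 0.19 (SE 0.05, 95% interval 0.09 to 0.29, limma adjusted p = 0.0201). The call was lost under 5 of the 18 alternatives, the most of the 4 genes, and the adjusted p ranged from 0.0122 to 0.0858. It was 0.0559 without WT library 1, 0.0562 without WT library 4, 0.0858 without Mettl3 KO library 2 and 0.0533 without Mettl3 KO library 3, with log2 fold changes between 0.16 and 0.19.

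**Figure D2:**
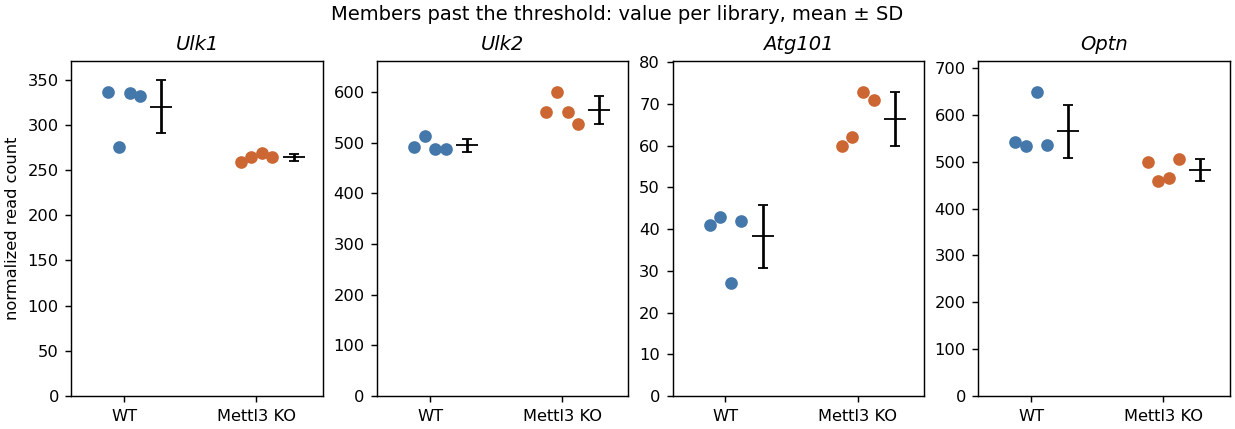
Normalized read count of Ulk1, Ulk2, Atg101 and Optn in each of the 4 WT and 4 Mettl3 KO libraries (points), with the mean and SD of each genotype beside them. The y axes start at 0 and differ between genes. The genotypes do not overlap in any of the 4 panels.

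The opposite directions of the kinases were set side by side in each library, after their values had been seen and so without a test. The ratio of Ulk2 to Ulk1 normalized read counts was 1.46, 1.86, 1.46 and 1.47 in WT libraries and 2.17, 2.28, 2.08 and 2.02 in Mettl3 KO libraries. Its mean was 1.56 ± 0.199 in WT and 2.14 ± 0.110 in Mettl3 KO hearts (SD, n = 4 each). The sum of both genes was 828, 789, 823 and 819 in WT libraries and 820, 865, 829 and 801 in Mettl3 KO libraries. These sums overlapped, with means of 815 ± 17.6 and 829 ± 26.8 (SD, n = 4 each).

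Atg13 and Rb1cc1 did not pass the test. Atg13 had 178, 150, 162 and 170 in WT libraries and 118, 139, 156 and 156 in Mettl3 KO libraries, a log2 fold change of -0.22 (limma adjusted p = 0.168). Mettl3 KO library 1 was the lowest, and the genotypes overlapped. Over the 18 alternatives the log2 fold change of Atg13 ranged from -0.27 to -0.13, and it was -0.13 without Mettl3 KO library 1. Rb1cc1, the member with the highest normalized read count, had 1079 to 1229 in WT and 1102 to 1115 in Mettl3 KO libraries, a log2 fold change of -0.05 (95% interval -0.13 to 0.04).

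The phosphatidylinositol 3-kinase complex makes the lipid PI3P on the forming membrane. PIK3C3 (VPS34) is its catalytic subunit, PIK3R4 (VPS15) its regulatory subunit, BECN1 the scaffold, ATG14 and UVRAG alternative partners of BECN1, and AMBRA1 a regulator that also acts on ULK1. Of these 6 genes, 0 passed the test with limma and 0 had an unadjusted p under 0.05. The median log2 fold change was 0.05, with values from -0.07 (Atg14) to 0.12 (Ambra1). Ambra1 had 175, 184, 181 and 163 in WT libraries and 188, 192, 216 and 171 in Mettl3 KO libraries, which overlapped (limma adjusted p = 0.428). For Becn1 the log2 fold change was 0.08 and its 95% interval ran from -0.05 to 0.21, and for Pik3c3 it was 0.06 with an interval from -0.12 to 0.24.

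The next step supplies and reads the membrane. ATG9A and ATG9B are scramblases of vesicles that seed it, ATG2A and ATG2B transfer lipid, and WIPI1 and WIPI2 bind PI3P. None of these 6 genes passed the test with limma, and Atg9a and Atg2a had an unadjusted p under 0.05 (0.0285 and 0.0330). Atg9a had 110, 99, 113 and 103 in WT libraries and 101, 91, 93 and 76 in Mettl3 KO libraries, a log2 fold change of -0.24 (limma adjusted p = 0.175). Atg2a had 210, 243, 228 and 216 in WT libraries and 193, 203, 211 and 196 in Mettl3 KO libraries, a log2 fold change of -0.16 (limma adjusted p = 0.190). In both genes the values of the genotypes overlapped, Atg2a by a single value of each. Atg2b, Wipi1 and Wipi2 had log2 fold changes of -0.09, 0.03 and 0.11. Atg9b was barely present, with 2, 7, 12 and 5 in WT libraries and 3, 7, 6 and 5 in Mettl3 KO libraries, and a difference could not be resolved at this depth.

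The conjugation enzymes and proteases were the largest group, with 11 tested genes. ATG7 is the E1-like enzyme, ATG3 and ATG10 are E2-like, the ATG5-ATG12 conjugate with ATG16L1 acts as the E3, and the ATG4 proteases process ATG8 and remove it again. Of these 11 genes, 0 passed the test and 0 had an unadjusted limma p under 0.05. The median log2 fold change was -0.08, with 4 genes above 0 and 7 below, and all 11 intervals lay within ±0.5.

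Atg5 and Atg7 had values without overlap but small differences. Atg5 had 146, 140, 138 and 141 in WT libraries and 132, 132, 125 and 125 in Mettl3 KO libraries, a log2 fold change of -0.14 with an SE of 0.08 (adjusted p from limma = 0.350). Atg7 had 92, 98, 90 and 85 in WT libraries and 79, 82, 81 and 79 in Mettl3 KO libraries, a log2 fold change of -0.18 with an SE of 0.10 (adjusted p from limma = 0.306). All Mettl3 KO libraries lay below all WT libraries in both genes, and neither passed the threshold. Atg7 is overlapped on its own strand by 3 processed pseudogenes of up to 16.9 mean normalized reads, and reads shared with them were left out of the counts.

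Atg12, which encodes the ubiquitin-like partner of ATG5, had 185, 195, 207 and 170 in WT libraries and 170, 220, 221 and 213 in Mettl3 KO libraries, a log2 fold change of 0.12 (limma adjusted p = 0.502). Mettl3 KO library 1 was as low as the lowest WT library, and the other 3 lay above all WT libraries. Atg10 had 76, 100, 71 and 84 in WT libraries and 57, 82, 76 and 84 in Mettl3 KO libraries, a log2 fold change of -0.15 (limma adjusted p = 0.597). Its libraries varied more within each genotype than the genotypes differed. Over the 18 alternatives the log2 fold change of Atg10 ranged from -0.22 to -0.03, and it was -0.03 without Mettl3 KO library 1. The other conjugation genes Atg3, Atg16l1 and Atg16l2 had log2 fold changes of -0.08, -0.06 and -0.11.

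Among the ATG4 proteases, Atg4b had 116, 114, 114 and 132 in WT libraries and 100, 99, 117 and 109 in Mettl3 KO libraries, a log2 fold change of -0.16 (limma adjusted p = 0.343). The genotypes overlapped through Mettl3 KO library 3. Atg4a, Atg4c and Atg4d had log2 fold changes of 0.01, 0.12 and 0.11, with intervals that all included 0.

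The 5 ATG8 genes encode the proteins whose lipidated form is the usual marker of autophagosomes, and they were given in every library whether called or not. Map1lc3a had 181, 198, 213 and 188 in WT libraries and 174, 191, 196 and 176 in Mettl3 KO libraries, a log2 fold change of -0.08. Map1lc3b had 171, 170, 204 and 182 in WT libraries and 170, 187, 203 and 188 in Mettl3 KO libraries, a log2 fold change of 0.04. The genotypes overlapped in both LC3 genes.

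Gabarap had 194, 200, 212 and 196 in WT libraries and 195, 187, 185 and 179 in Mettl3 KO libraries, a log2 fold change of -0.10. Gabarapl1 had 231, 231, 270 and 236 in WT libraries and 248, 274, 249 and 267 in Mettl3 KO libraries, a log2 fold change of 0.10. The overlap of Gabarapl1 rested on WT library 3 alone, the other 3 WT libraries lying below all Mettl3 KO libraries. Gabarapl2 had 49, 39, 46 and 58 in WT libraries and 43, 49, 59 and 51 in Mettl3 KO libraries, a log2 fold change of 0.08 whose sign changed under 1 of the 18 alternatives. None of the 5 passed the test (limma adjusted p of 0.439 to 0.844) and 0 had an unadjusted p under 0.05. The 5 genes together summed to 826, 838, 945 and 860 in WT libraries and to 830, 888, 892 and 861 in Mettl3 KO libraries. The means of these sums, 867 ± 53.7 and 868 ± 28.7 (SD, n = 4 each), differed by less than the spread within either genotype.

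**Figure D3:**
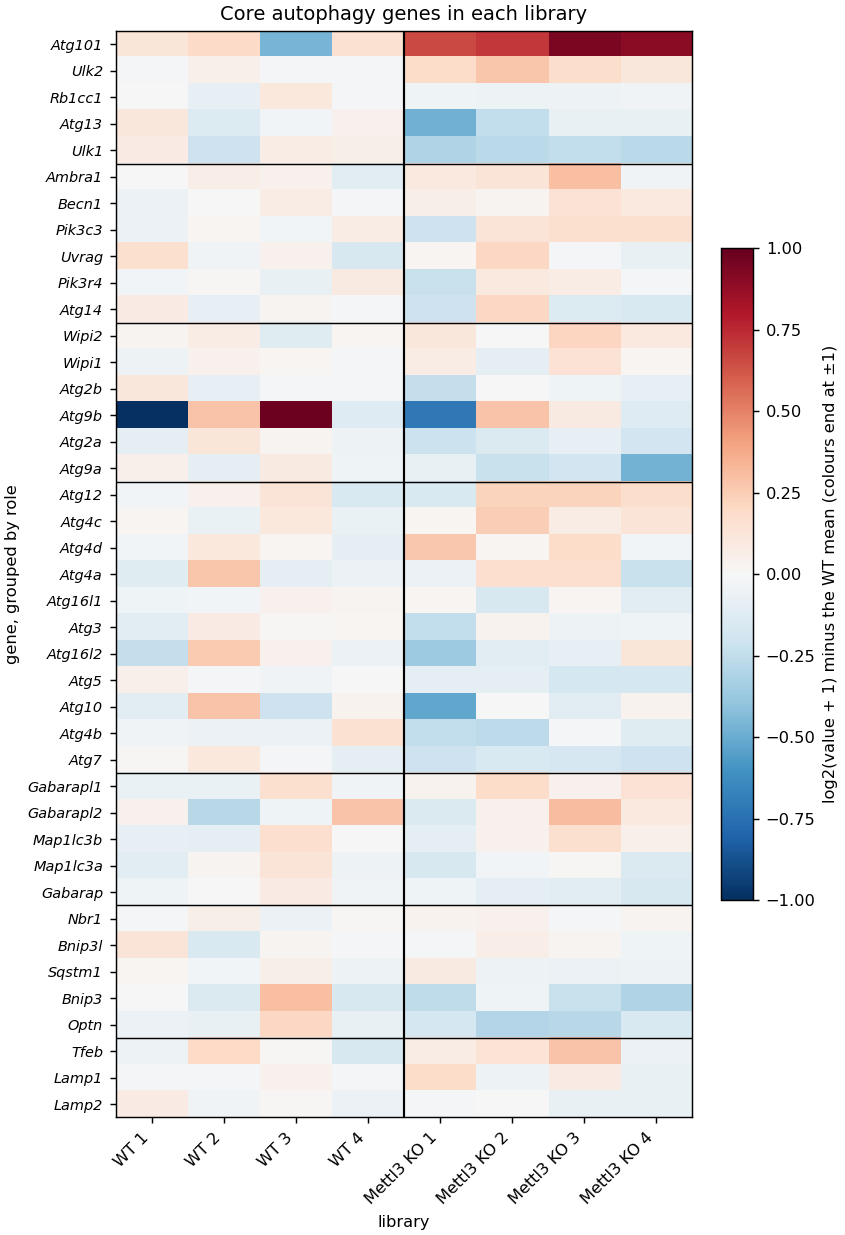
Log2(value + 1) of each tested core autophagy gene (rows, grouped by role) in each library (columns), minus the WT mean of that gene, with colours ending at ±1. Only Atg101 is red in all 4 Mettl3 KO libraries at 0.5 or more, and the rows of the ATG8 genes are pale in both genotypes. The strong colours of Atg9b belong to values between 2 and 12.

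Of the 5 cargo and mitophagy receptors, 1 passed the test, beside 7.91% of all genes and 11.9% of those with a mean of at least 20. Optn (optineurin, a receptor for ubiquitinated mitochondria and bacteria; ENSMUSG00000026672, mm39 chromosome 2, 5025453 to 5068862, minus strand) counted 542, 534, 650 and 536 in WT libraries and 499, 459, 466 and 506 in Mettl3 KO libraries. WT library 3 stood high, and all Mettl3 KO libraries lay below all WT libraries. The mean fell from 565.5 ± 56.4 (SD, n = 4) to 482.5 ± 23.4 (SD, n = 4), to 85.3% of WT. The log2 fold change was -0.22 (SE 0.06, 95% interval -0.35 to -0.10, limma adjusted p = 0.0245). Without WT library 3 it was -0.16 (adjusted p = 0.0974), without Mettl3 KO library 2 it was -0.20 (adjusted p = 0.0993), and without Mettl3 KO library 3 it was -0.21 (adjusted p = 0.0966). Over the 18 alternatives the adjusted p ranged from 0.0156 to 0.0993.

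Bnip3, which encodes a mitophagy receptor of the outer mitochondrial membrane, had 187, 168, 230 and 166 in WT libraries and 156, 181, 159 and 151 in Mettl3 KO libraries. WT library 3 was again the highest, the genotypes overlapped, and the log2 fold change was -0.20 (limma adjusted p = 0.215). Over the 18 alternatives the log2 fold change of Bnip3 ranged from -0.26 to -0.09, and it was -0.10 without WT library 3. Its relative Bnip3l had a log2 fold change of 0.01 (95% interval -0.13 to 0.15). Sqstm1, which encodes p62, the receptor that itself is degraded by autophagy, had 599.5 ± 20.8 in WT and 592 ± 31.2 in Mettl3 KO hearts (SD, n = 4 each). The log2 fold change of Sqstm1 was -0.02, with a 95% interval from -0.12 to 0.09. For the p62-related receptor gene Nbr1 it was 0.02, with an interval from -0.07 to 0.11. A log2 fold change of the size measured for Optn lay within the 95% interval of Bnip3 and outside those of Bnip3l, Sqstm1 and Nbr1.

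The last group joined Tfeb, the transcription factor that drives autophagy and lysosome genes through the E-box, to the lysosomal membrane genes Lamp1 and Lamp2. None of the 3 passed the test with limma, and 0 had an unadjusted p under 0.05. Tfeb had 111 to 143 in WT and 119 to 152 in Mettl3 KO libraries, a log2 fold change of 0.11 (95% interval -0.09 to 0.31). Lamp1, with its 4 E-boxes, had a log2 fold change of 0.04 (95% interval -0.08 to 0.15). Lamp2 had a log2 fold change of -0.04 (95% interval -0.13 to 0.05).

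Levels were compared between genes per kb of exon, using merged exon lengths of an annotation on GRCm38 that were found for all 41 tested members. In WT hearts Lamp1 was highest at 236 ± 5.08 normalized reads per kb (SD, n = 4), followed by Sqstm1 at 179 ± 6.21, Map1lc3a at 165 ± 11.8 and Optn at 151 ± 15.0. Sqstm1 and Map1lc3a differed by less than their summed SDs, and so did Map1lc3a and Optn. Among the ATG8 genes, Gabarapl1 stood at 120 ± 9.35 and Gabarap at 109 ± 4.37 per kb, while Map1lc3b stood at 24.2 ± 2.10 and Gabarapl2 at 20.7 ± 3.39. Within the induction complex Ulk2 stood at 82.8 ± 2.06, Rb1cc1 at 77.9 ± 4.26, Ulk1 at 49.3 ± 4.53, Atg13 at 37.8 ± 2.74 and Atg101 at 24.0 ± 4.72. Atg9b was the lowest at 1.65 ± 1.07. The merged exon length enters this scale directly, and it was 7.52 kb for Map1lc3b and 1.18 kb for Map1lc3a.

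The word GGACT, a common form of the m6A consensus, was counted in the longest protein-coding transcript of each gene. It occurred at a median of 1.19 per kb over the 41 members, from 0 to 2.75, and at 1.05 per kb over 14322 genes. In 23 of the 41 members the density was above the median of all genes. It was 1.58 per kb in Atg101, 1.15 in Ulk1, 0.70 in Ulk2 and 0.38 in Optn, so the called genes lay on both sides of that median. The count describes letters and holds no measurement of methylation.

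The wider pathway was covered by 7 lists with 135 symbols, of which 134 were found and tested. Of these 134 genes, 10 passed the test, 7 higher and 3 lower, and the median log2 fold change was 0.01. The share that passed was 7.46%, beside 7.91% of all genes and 11.9% of those with a mean of at least 20. The count of 10 fell to 5 without WT library 1 or 2 and to 6 without Mettl3 KO library 3. The genotypes did not overlap for 19 of the 134 genes (14.2%, beside 11.5% of all genes). The largest log2 fold change of the 134 was that of Bcl2, which encodes an anti-apoptotic protein that also binds BECN1. Bcl2 had 161, 215, 178 and 216 in WT libraries and 433, 334, 356 and 349 in Mettl3 KO libraries. All Mettl3 KO libraries lay far above all WT libraries, with a log2 fold change of 0.94 with an SE of 0.09 (adjusted p from limma = 8.77e-07), while Becn1 itself did not pass the test. The other 12 genes of the list of Beclin 1 partners and early membrane factors did not pass.

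The mTORC1, AMPK and TSC list, the signalling upstream of the ULK complex, had 3 called genes of 28 (10.7%, beside 7.91% of all genes and 11.9% of those with a mean of at least 20). Tsc1 and Tsc2 encode the partners of the TSC complex that restrains mTORC1, and they moved in opposite directions. Tsc1 had 409, 415, 402 and 411 in WT libraries and 469, 478, 506 and 493 in Mettl3 KO libraries, a log2 fold change of 0.25 with an SE of 0.05 (adjusted p from limma = 0.00255). Tsc2 had 612, 625, 607 and 590 in WT libraries and 549, 503, 545 and 491 in Mettl3 KO libraries, a log2 fold change of -0.22 with an SE of 0.05 (adjusted p from limma = 0.00680). In both genes every Mettl3 KO library lay outside the WT range, and both kept the call under each of the 18 alternatives. Flcn, which encodes folliculin, a regulator of the Rag GTPases at the lysosome, was lower at -0.28 (limma adjusted p = 0.0374). The call of Flcn was lost without any one of WT libraries 1, 2 and 4 and Mettl3 KO libraries 1, 2 and 3 (adjusted p of 0.0658 to 0.139), and with WT library 3 and Mettl3 KO library 1 both left out (0.103).

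Of 9 transcription factors of the pathway, 2 passed (22.2%, beside 7.91% of all genes and 11.9% of those with a mean of at least 20). Both were higher, where 4.72% of all genes were higher, and 1 of the 2 lost its call under 7 of the 18 alternatives. Mitf, a relative of Tfeb, had 610, 624, 666 and 598 in WT libraries and 752, 757, 782 and 711 in Mettl3 KO libraries, a log2 fold change of 0.27 with an SE of 0.05 (adjusted p from limma = 0.000988). The genotypes did not overlap in Mitf, and the call held under each of the 18 alternatives. Foxo3, a FoxO factor that acts on autophagy and atrophy genes, was higher by 0.21 (limma adjusted p = 0.0470). It lost the call without any one of WT libraries 1, 2 and 4 and Mettl3 KO libraries 1, 3 and 4 (adjusted p of 0.0566 to 0.196), and also with a pseudocount of 0.5.

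Among 31 lysosomal hydrolases and membrane proteins 2 were called (6.45%, beside 7.91% of all genes and 11.9% at a mean of at least 20). Smpd1 (acid sphingomyelinase) was higher and Gaa (acid alpha-glucosidase, which breaks down lysosomal glycogen) was lower. Smpd1 had 266, 278, 335 and 296 in WT libraries and 460, 373, 393 and 348 in Mettl3 KO libraries, without overlap, a log2 fold change of 0.42 with an SE of 0.08 (adjusted p from limma = 0.00143). Gaa had a log2 fold change of -0.25 (limma adjusted p = 0.0172), its genotypes overlapped, and the call was lost without any one of WT libraries 1, 2 and 3 and Mettl3 KO library 2 (adjusted p of 0.0545 to 0.0672), and with WT library 3 and Mettl3 KO library 1 both left out (0.118). Of 21 other cargo and organelle receptors 2 were called (9.52%, beside 7.91% of all genes and 11.9% at a mean of at least 20). Sec62, a receptor for the endoplasmic reticulum, and Tollip, a ubiquitin-binding adaptor, were higher by 0.20 and 0.23 (limma adjusted p = 0.0195 and 0.0308). Sec62 lost the call without any one of WT libraries 1 and 2 and Mettl3 KO library 3 (adjusted p of 0.0505 to 0.0875). Tollip lost it without any one of WT libraries 1, 2 and 3 and Mettl3 KO libraries 1, 3 and 4 (adjusted p of 0.0533 to 0.143), and with WT library 3 and Mettl3 KO library 1 both left out (0.121). The 15 genes of autophagosome-lysosome fusion and the 17 of the vacuolar ATPase, the proton pump of the lysosome, had 0 called genes with limma, and 2 and 1 with an unadjusted p under 0.05. Their median log2 fold changes were -0.04 and -0.06. Over all genes 7.91% were called and 20.6% had an unadjusted p under 0.05, and at a mean of at least 20 these shares were 11.9% and 27.5%.

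**Figure D4:**
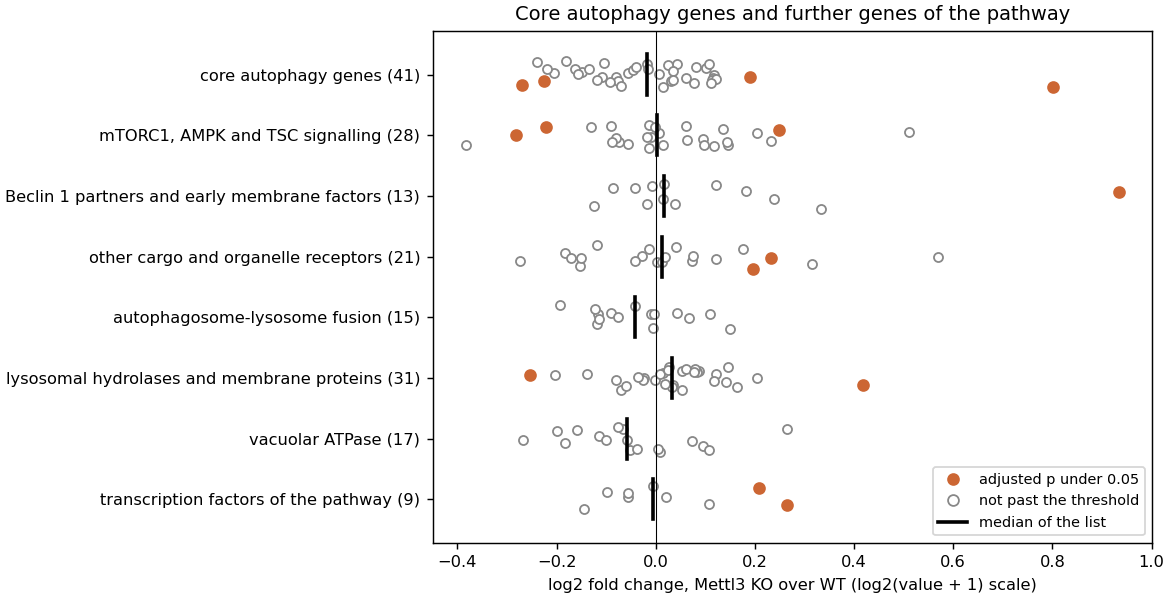
Log2 fold change (Mettl3 KO over WT, log2(value + 1) scale) of the core autophagy genes and of the genes of 7 further lists of the pathway, 1 point per gene, with the number tested in brackets and the median as a vertical bar. Filled points have an adjusted p under 0.05. The medians lie between -0.06 and 0.03, and the farthest points are Bcl2 at 0.94 and Atg101 at 0.80.

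The libraries were checked against their labels and for other cell types. Normalized totals were 2839589 to 2881849 in WT and 2840184 to 2916986 in Mettl3 KO libraries. Mettl3 was lower in Mettl3 KO hearts (105 to 133 in WT, 68 to 78 in Mettl3 KO libraries), and Esr1, part of which is in the transgene, was higher (13 to 20 and 693 to 851). In bulk RNA, fewer cells of a type and less RNA per cell cannot be told apart. The 8 cardiomyocyte markers were abundant in every library, with sums of 82642 to 89123 in WT and 81631 to 91414 in Mettl3 KO libraries, and 0 of 8 were called with limma (2 with an unadjusted p under 0.05). Most of each sum came from Ttn, with a WT mean of 71020. All 8 had a log2 fold change above 0, from 0.004 to 0.12. Of 8 fibroblast markers 7 were higher in Mettl3 KO hearts, with sums of 3648 to 4172 and 4711 to 5671. Of 8 endothelial markers 3 were lower and 1 was higher, with sums of 5376 to 5526 and 4924 to 5316. Macrophage marker sums overlapped, with 1 of 8 genes lower, as did those of lymphocyte, smooth muscle and blood markers, with 0 called by limma. An unadjusted limma p under 0.05 was found for 2 macrophage, 1 lymphocyte, 3 smooth muscle and 2 blood markers. The 3 smooth muscle markers went in both directions. Of the 8 blood markers 7 had a log2 fold change below 0, and the median was -0.32. The part of these markers in the differences of Atg101, Ulk1, Ulk2 and Optn was not tested.

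The atrial genes Myl7, Sln and Bmp10 were all 3 higher in Mettl3 KO hearts (limma adjusted p of 0.00114 to 0.0218). They summed to 38, 27, 0 and 27 in WT libraries and to 33, 294, 277 and 541 in Mettl3 KO libraries, and Bmp10 was listed at 0 in all WT libraries and in Mettl3 KO library 1. Mettl3 KO library 1 thus lay within the WT range, and Mettl3 KO libraries 2, 3 and 4 lay above it. In Mettl3 KO library 1 Atg101 stood at 60 (WT 27 to 43), Ulk1 at 259 (WT 276 to 337), Ulk2 at 561 (WT 487 to 513) and Optn at 499 (WT 534 to 650). That each lay outside the WT range was already given by the lack of overlap in these 4 genes. It is therefore no separate result on atrial tissue. WT library 3, with an atrial sum of 0, was the WT library lowest in Atg101 and highest in Optn and Bnip3. With WT library 3 and Mettl3 KO library 1 both left out, a setting chosen after seeing the data that leaves atrial sums of 27 to 38 against 277 to 541 and so does not balance them, 1 of the 4 members passed. Atg101 then had a log2 fold change of 0.69 (limma adjusted p = 0.00620). Ulk1, Ulk2 and Optn had log2 fold changes of -0.24, 0.19 and -0.17 with adjusted p of 0.0866, 0.0630 and 0.0740. The part of atrial tissue in the differences of the members was not tested.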

How the data were processed

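Total RNA of mouse heart had been sequenced as 8 strand-specific libraries of single-end reads (4 WT, 4 Mettl3 KO). By the submitters' processing notes and the methods of the study, the authors trimmed reads with Trimmomatic 0.39, aligned them to mm39 with STAR 2.7.11a and Ensembl annotation, removed duplicates with Picard 3.1.1 together with multi-mapping, ribosomal and mitochondrial reads, counted exonic reads in a strand-specific way (featureCounts 2.0.4, without reads that fall on more than one gene), and scaled them with DESeq2 1.36.0. Leaving out multi-mapping reads lowers genes that have near-identical copies. What the authors deposited is a score, a scaled count rounded to whole numbers that is not a raw count, so count models with a negative binomial error were not run. Limma voom, which is made for counts, was run on these scaled values as an alternative only. The number of reads before scaling is not in the table.

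For each gene whose mean was 1 or more, log2(value + 1) was modelled on genotype alone in limma 3.58.1 (R 4.3.3, eBayes with trend), two-sided, with Benjamini-Hochberg adjustment over all 20313 genes and a threshold of 0.05. The pseudocount understates the change of low genes. Tables were handled with Python 3.11.15 and pandas 2.3.3. All 8 columns were used.

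Members that passed, the 10 further members with the largest absolute log2 fold change and a mean of at least 10, and the 5 ATG8 genes were given per library, other members by fold change or range, and at most 6 called genes per pathway list. The members, lists and tests were chosen with earlier results of these data known. Of the listed symbols, Vamp7 was not matched, and 1 further gene, absent from all list counts, is not reported here. Promoters came from RefSeq (GRCm38.p6), and exon lengths and transcripts from GENCODE M21 (GRCm38), matched by gene identifier with no use of its coordinates. For 16 members another gene overlaps on either strand and for 4 on the same strand (Atg7, Atg16l1, Gabarapl1, Uvrag), and none of the 4 called members is overlapped. Alternatives were other scalings, limma voom, pseudocounts, filters, the replicate number as a block and each library left out in turn. Leaving out 2 libraries together was chosen after seeing the data.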

Additional observations from a re-analysis of the deposited data

Results flagged for a closer look

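In 7 cases a single library lay far from the other 3 of its genotype. The ratio of its gap to the nearest of them to the range of the group exceeded the 95% critical value of Dixon's test for 4 samples. For the called genes these were Optn in WT hearts (ratio 0.931, library 3 at 650, the others at 534 to 542), Atg101 in WT hearts (0.875, library 3 at 27, the others at 41 to 43), Ulk1 in WT hearts (0.918, library 2 at 276, the others at 332 to 337) and Ulk2 in WT hearts (0.846, library 2 at 513, the others at 487 to 491). Leaving out the library named changed the call of Optn and kept those of Atg101, Ulk1 and Ulk2. The others were Gabarapl1 in WT hearts (0.872, library 3 at 270, the others at 231 to 236), Atg4b in WT hearts (0.889, library 4 at 132, the others at 114 to 116) and Atg12 in Mettl3 KO hearts (0.843, library 1 at 170, the others at 213 to 221). The 19 genes given per library were examined in both genotypes, which makes 38 groups. Chance alone marks about 1 group in 20, so 1.9 groups were expected beside the 7 marked. An excess was not tested, and the groups share libraries.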

How the results depend on the processing

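The number of core autophagy genes called was 4, and always the same 4, under 3 other scalings, limma voom, pseudocounts of 0.5 and 4, no filter, a filter at a mean of 10 and the replicate block. With 1 library left out it ranged from 2 to 4. It was 2 without WT replicate 1 or 4 or Mettl3 KO replicate 2 or 3, 3 without WT replicate 3, and 1 (Atg101) with both WT replicate 3 and Mettl3 KO replicate 1 left out. The number of further pathway genes called, 10 of 134, ranged from 5 to 11 with 1 library left out, the lowest being 5 without WT replicate 1 or 2 and 6 without Mettl3 KO replicate 3. With all libraries it was 13 under the filter at a mean of 10, 9 with a pseudocount of 0.5, and 10 or 11 otherwise. With both WT replicate 3 and Mettl3 KO replicate 1 left out it was 7. Over all genes, 1607 were called, 1346 with the replicate block and 1019 without Mettl3 KO replicate 3, where fewer samples were fitted. The block left the 4 members called. The replicate numbers were not treated as pairs, since deviations of libraries with the same number from their group means correlated at 0.05, 0.04, -0.04 and 0.09 across genes. The median log2 fold change of the members lay between -0.04 and 0.0007 under the 18 alternatives, positive only with both libraries left out. Atg9b, Atg4a, Gabarapl2 and Atg101 have the lowest values, and their intervals are the widest.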
